A study of Drosophila melanogaster with 6 samples.

Results

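The peaks of Yorkie (Yki) over the tandem array of the replication-dependent histone genes on chromosome arm 2L of Drosophila melanogaster form 1 dense block of the deposited peak list. Members were chosen by position in the authors' peak list: all peaks on 2L that overlap positions 21415000 to 21544000 of release 5, a window of 129.001 kb, and there were 51 of them among the 5136 peaks of the list. The window was selected on the crowding of called peaks within it, with the list already known, so the number, widths and scores of these 51 peaks are given as a description and no test was made on them. Chromatin immunoprecipitation followed by sequencing (ChIP-seq) compared 3 Yki ChIP libraries with 3 input libraries of embryos 8 to 16 h after egg laying, fixed in 1.8% formaldehyde for 15 min. The antibody, Yki91, is an unpurified polyclonal rabbit serum against the whole Yki protein. All 6 libraries come from the Y cn bw sp strain and none had a treatment, so ChIP against input is the sole contrast. The strain carries the alleles y[1] and oc[R3.2] together with Gr22b[1], also Gr22d[1] and cn[1], then CG33964[R4.2] along with bw[1] and sp[1], and further LysC[1] with lab[R4.2], plus MstProx[1] and GstD5[1] and Rh6[1]. The chromatin is that of whole embryos, in which cycling and resting cells of many types are mixed. Whether the 3 libraries of a kind stem from separate embryo collections is not stated in the labels.

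Yki is the transcriptional coactivator of the Hippo growth-control pathway. It has no DNA-binding domain of its own and reaches chromatin through partner proteins such as Scalloped and Homothorax. The replication-dependent histones are made during S phase, when new DNA has to be packed. Their mRNAs end in a stem-loop bound by Slbp in place of a poly(A) tail. In flies the 5 genes lie together in a repeat unit that is copied head to tail many times, and the copies gather in a nuclear structure, the histone locus body, which is organised by Mxc and also holds FLASH, Mute and, on the promoters shared by His3 and His4, the GA-repeat protein Clamp. His1 encodes the linker histone, which sits on the DNA between nucleosomes, and its promoter uses the TBP-related factor Trf2. His2A and His2B encode the partners of the H2A-H2B dimer, and His3 and His4 those of the H3-H4 tetramer, and together these form the nucleosome core.

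The gene table used here follows release 6, and the peaks follow release 5, so the table was read only for names and for the order of neighbouring genes, and no peak was placed on a single gene. The table lists 111 copies of the 5 genes in 1 block on 2L and none on another chromosome. There are 23 copies of His1, 23 of His2B, 20 of His2A, 22 of His4 and 23 of His3. The block begins with His1:CG33801 and ends with His3:CG33866. Inside it, the order His1, His2B, His2A, His4, His3 occurs 19 times, and the shorter order His1, His2B, His4, His3, without a listed His2A, occurs 3 times, as the first, the third and the fifth run of the block. The last run has no listed His4. The 24 other genes between the first and the last copy are histone pseudogenes, named His-Psi, and small RNA genes, and histone pseudogenes (His-Psi:CR31754 and His-Psi:CR31614) lie next to the block on either side. No gene of another kind is listed within the block.

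Each peak has a start, an end and 1 peak score, which is the authors' value from the peak caller and has no stated scale. The list has no value per library. The spread between replicates and the number of reads behind a peak are therefore unknown, and no value below carries a replicate error. The copies of the repeat are very alike in sequence, and the sources used here do not give the placement of reads that match several copies. The peaks of neighbouring copies can thus rest on the same reads, and they are not independent measurements of Yki binding. The assembly holds fewer copies of the unit than the fly genome, and how far the input libraries balance this was not tested.

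Yki peaks covered 64126 bp of the window, or 49.7% of it. In the flank of equal length before the window 5 peaks covered 1.59%, and in the flank after it 7 peaks covered 2.05%. The array held 39.5 peaks per 100 kb, the flank before it 3.88 and the flank after it 5.43. The array had 8.75% of the 583 peaks of 2L and 17.0% of the bases that peaks cover on this arm. The first array peak began at 21417341 and the last ended at 21541317. The nearest peak outside on the side of lower positions lay at 21404797 to 21405253 with a score of 27.17, which leaves 12.1 kb without a peak before the array. On the other side the nearest peak lay at 21557857 to 21558125 with a score of 9.24, after 16.5 kb without a peak.

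Wide peaks, the highest of each group scoring between 43.07 and 70.48, alternated along the array with stretches that held no peak or a single narrow one. When peaks with gaps of at most 500 bp were joined, the 51 peaks formed 25 groups, of which 23 spanned at least 2 kb and 2 were single narrow peaks. The thresholds of 500 bp and 2 kb were set with the peaks in view. The 23 wide groups equal in number the 23 listed copies of His1, of His2B and of His3, but not the 20 of His2A or the 22 of His4. The gene table follows a later release than the peaks. Which genes lie under which group was not determined. A group spanned a median of 2927 bp, from 2537 to 3439 bp, with a coefficient of variation of 8.51% over the 23 groups. The stretch between neighbouring wide groups had a median of 2080 bp and ran from 1570 to 2419 bp, apart from 1 long stretch. These stretches were free of peaks except the one after the twentieth wide group, itself of 2080 bp, which holds a single narrow peak.

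**Figure D1:**
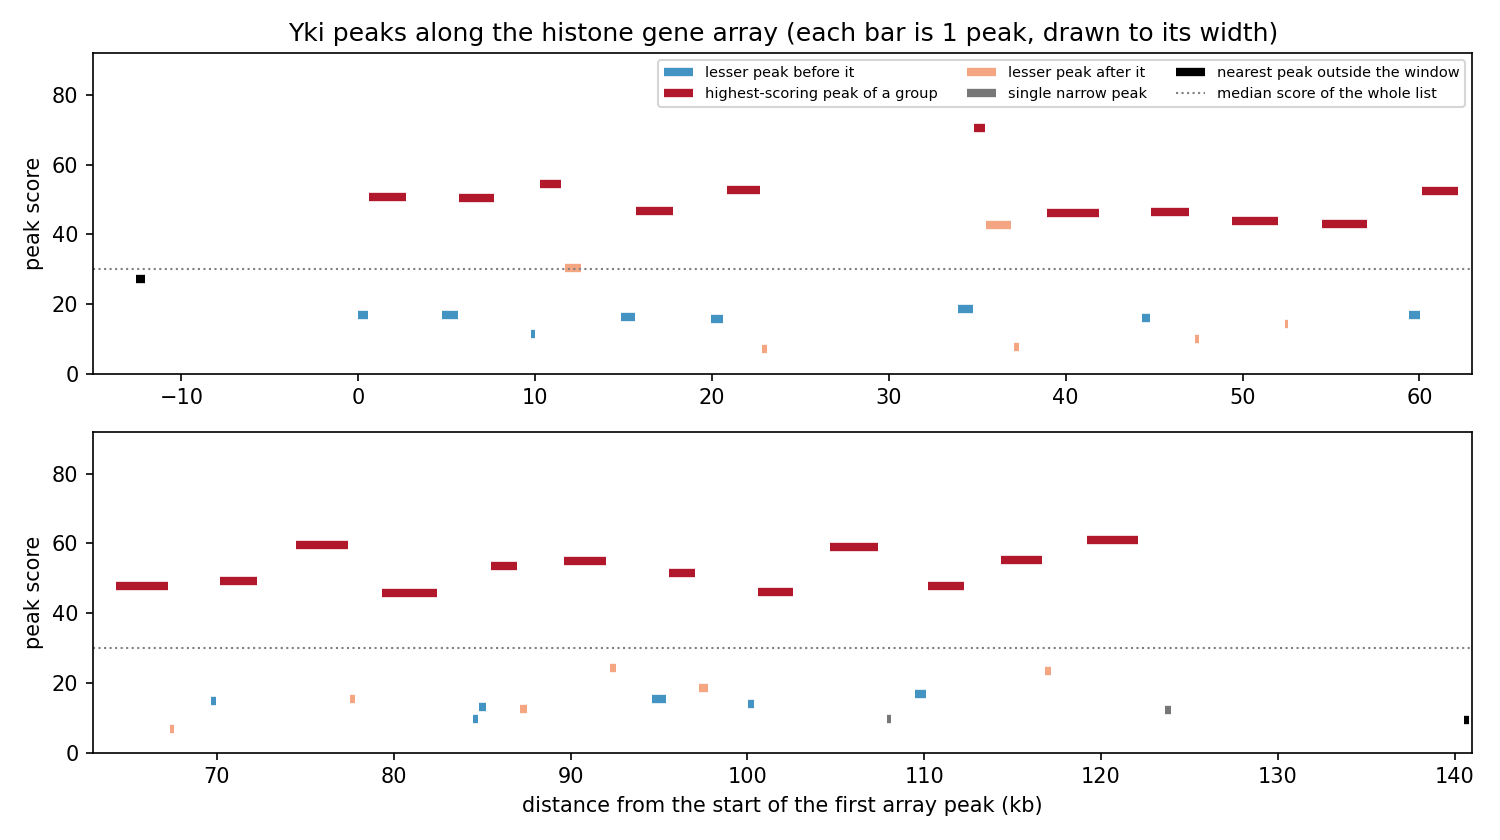
Peak score (vertical axis, the authors' unit) of each Yki peak over the histone array against its distance from the first array peak (horizontal axis, kb, in 2 panels that follow each other). Red bars are the highest-scoring peaks of the 23 wide groups and lie between 43.07 and 70.48, blue and orange bars are lesser peaks of the same groups, grey bars the 2 single narrow peaks, black bars the nearest peaks outside, and the dotted line is the list's median of 30.1.

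The groups followed each other at close to equal steps. From the start of a group to the start of the next, the step was 5012 ± 212 bp (SD over 21 steps), with a median of 5009 bp and a range of 4632 to 5434 bp. Measured at the group ends the step was 5008 ± 306 bp, and at the group midpoints 5010 ± 188 bp, over the same 21 steps. The SD here is the spread among steps along the array, not among libraries. The starts of the highest-scoring peaks alone were less even, at 4981 ± 689 bp, as a lesser peak was called before them in 13 of the groups and not in the others.

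A single step was long. The fifth group ended at 21440435 and the sixth began at 21451242, with 10806 bp between them in which the list has no peak. The starts of these groups were 13936 bp apart, 2.78 times the median step. The sequence of this stretch was not analysed here. The 5 groups before the long stretch had highest scores from 46.75 to 54.46 with a median of 50.6, and the 18 groups after it had highest scores from 43.07 to 70.48 with a median of 50.4. Their spans were 2674 to 3130 bp before the stretch and 2537 to 3439 bp after it. Both in score and in span, the 5 groups lay within the range of the 18.

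The first 5 groups are described singly here and do not stand for all groups. The first group, at 21417341 to 21420014, had a peak of 532 bp with a score of 16.8 followed by a peak of 2078 bp with a score of 50.59. The second group, at 21422075 to 21425001, had a peak of 882 bp with a score of 16.89 followed by a peak of 1972 bp with a score of 50.29. The third group, at 21427084 to 21429934, was broken into 3 peaks with scores of 11.36, 54.46 and 30.41. The fourth group, at 21432203 to 21435116, again had a narrow peak with a score of 16.23 before a wide one with a score of 46.75. The fifth group, at 21437306 to 21440435, had scores of 15.74 and 52.75 and a last peak of 282 bp with a score of 7.14. In each of these 5 groups a low peak came before the highest one, and the low peak scored between 11.36 and 16.89. Over the array this held for only 13 of the 23 groups, and 5 of the 23 were a single peak.

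Over all 23 groups, 5 were a single peak, 12 held 2 peaks, 4 held 3 and 2 held 4. A lesser peak stood before the highest one in 13 groups and after it in 11, with 6 groups having both. The 14 lesser peaks before it were all low, with scores from 9.72 to 18.44 (median 15.9) and widths from 255 to 882 bp. The 12 after it had scores from 6.83 to 42.6 (median 14.8) and widths from 201 to 1424 bp. The 23 highest-scoring peaks themselves had scores from 43.07 to 70.48 (median 50.6) and widths from 598 to 3098 bp (median 2125 bp). No lesser peak reached the score of the lowest of these 23, 43.07, which follows in part from choosing the highest peak in each group, since the nearest lesser peak had 42.6.

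The spans of groups called as a single peak overlapped those of groups called as several. The 5 single-peak groups spanned 2568 to 3098 bp with a median of 2883 bp, and the 12 groups of 2 peaks spanned 2537 to 3331 bp with a median of 2886.5 bp. The 4 groups of 3 peaks had a higher median of 3153 bp (2851 to 3217 bp), and the 2 groups of 4 peaks spanned 3029 and 3439 bp. A group with more peaks can be longer by construction, since each added peak extends it. Their highest scores also overlapped, with a median of 46.0 in single-peak groups and with 49.7, 52.2 and 61.95 in groups of 2, 3 and 4 peaks. Breaks between the peaks of a group were short, 53 to 379 bp with a median of 166 bp. Of the 26 breaks, 14 had their midpoint 330 to 918 bp from the start of the group and 10 had it at 2414 to 3112 bp. The other 2 breaks, at 1569 and 1814 bp, lie in the sixth and the third group. All 23 groups were covered at every 50 bp step from 1000 to 1500 bp after the group start, and 13 of them were still covered at 2800 bp.

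**Figure D2:**
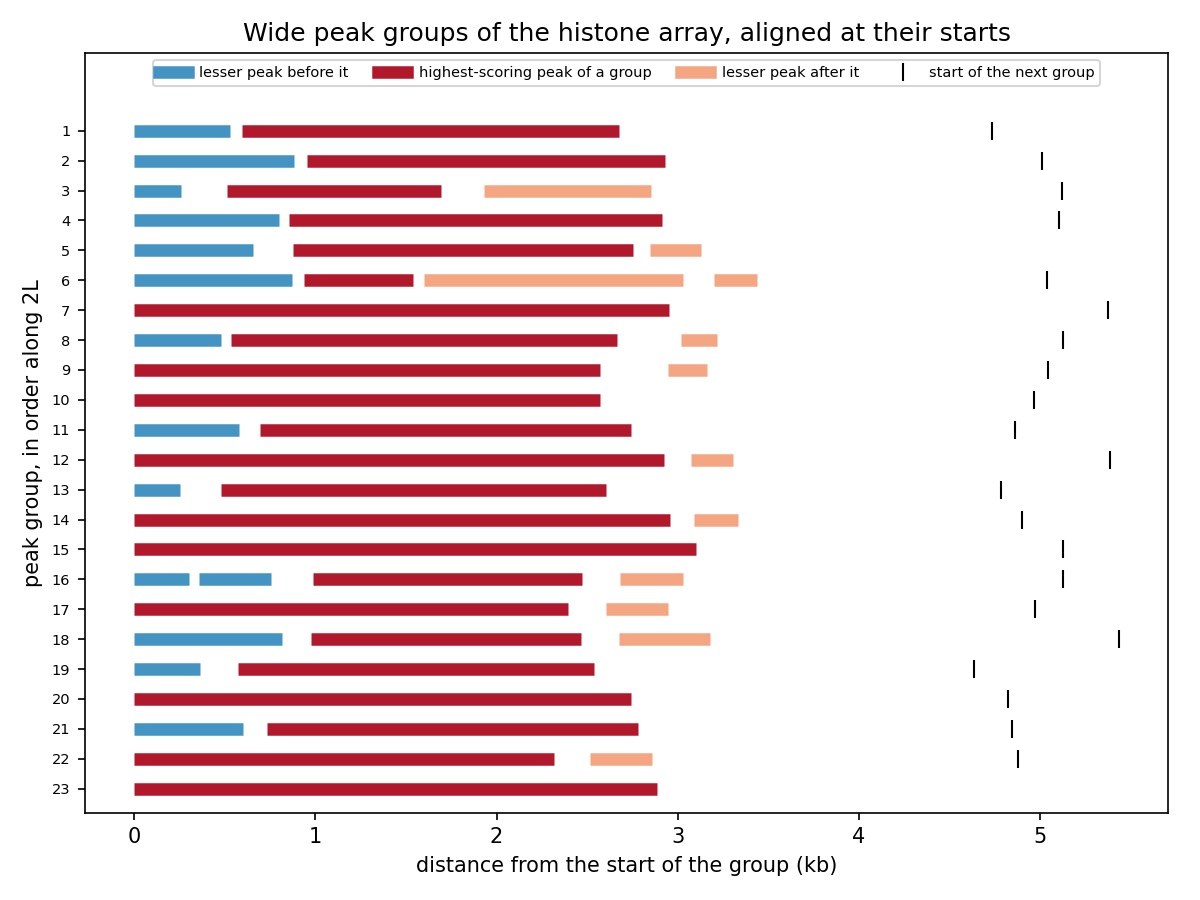
The 23 wide peak groups of the histone array (rows, in order along 2L from the top) with their peaks drawn from the start of each group (horizontal axis, kb). Red bars are the highest-scoring peaks, blue and orange bars the lesser peaks before and after them, and black ticks the start of the next group, 4632 to 5434 bp after the start of the group, where it follows directly; a reader should see that groups of 1 and of 2 peaks have similar extents, with medians of 2883 and 2886.5 bp.

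The single narrow peaks lay outside the wide groups. The peak at 21525241 to 21525481, of 241 bp and a score of 9.65, lay 505 bp after the twentieth group and thus just past the limit for joining. The last array peak, at 21540966 to 21541317, of 352 bp and a score of 12.11, lay 1546 bp after the last group.

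The highest score of the array, 70.48, belonged to a peak of 598 bp at 21452181 to 21452778 in the sixth group, right after the long stretch. It ranked 1333 among the 5136 peaks of the list. This group was the widest, at 3439 bp, and was broken into 4 peaks, with a score of 42.6 in the wide peak that followed. The next scores were 60.97 at 21536537 to 21539419, 59.53 at 21491806 to 21494760, 58.95 at 21521994 to 21524735 and 55.12 at 21531661 to 21533975. These 4 peaks were 2315 to 2955 bp wide, and 3 of them lie in the last 4 groups. The lowest scores were 6.83 at 21484713 to 21484944, 7.14 at 21440154 to 21440435 and 7.67 at 21454441 to 21454680, each a narrow last peak of a group, with ranks of 5132, 5127 and 5119 in the list. The widest peaks were 3098 bp at 21496707 to 21499804 with a score of 45.82, 2955 bp at 21491806 to 21494760, and 2952 bp at 21456278 to 21459229 with a score of 46.0. The narrowest were 201 bp at 21464665 to 21464865 with a score of 9.94, 215 bp at 21469719 to 21469933 with a score of 14.17 and the peak of 232 bp that also had the lowest score.

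The repetition was measured in the peak calls themselves. A base covered by an array peak fell on another covered base in 85.4% of cases when the coverage was shifted by 5040 bp, the best lag from 3 to 8 kb, and still in 78.5% of cases at 10080 bp. The lowest matches before and between these lags were 25.8% at 2560 bp and 22.8% at 7600 bp, while 51.7% of all bases from the first to the last array peak were covered. The curve of the array therefore rises and falls with the repeat, above and below what its coverage alone gives. At the start of arm 3L, where 19 peaks lay in the first 100 kb, the match declined steadily, with 77.0% at 3000 bp and 63.4% at 6000 bp. From the first to the last of these peaks 46.3% of bases were covered, so these matches also lie above coverage. On the stretch of Uextra with the most peaks, at 28 to 29 Mb with 418 peaks, the match stayed between 29 and 35% at lags from 3 to 8 kb. This too lies above the coverage there, 21.7% from the first to the last peak. Uextra joins unassigned scaffolds end to end, so lags there need not be distances in the genome. In a crowded window of 100 kb on 3R, with 16 peaks, the best match was 22.2% at 7900 bp. A low of 2.59% at 4550 bp came before it. From the first to the last of these peaks 11.8% of bases were covered, so matches above and below coverage are not particular to the array.

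**Figure D3:**
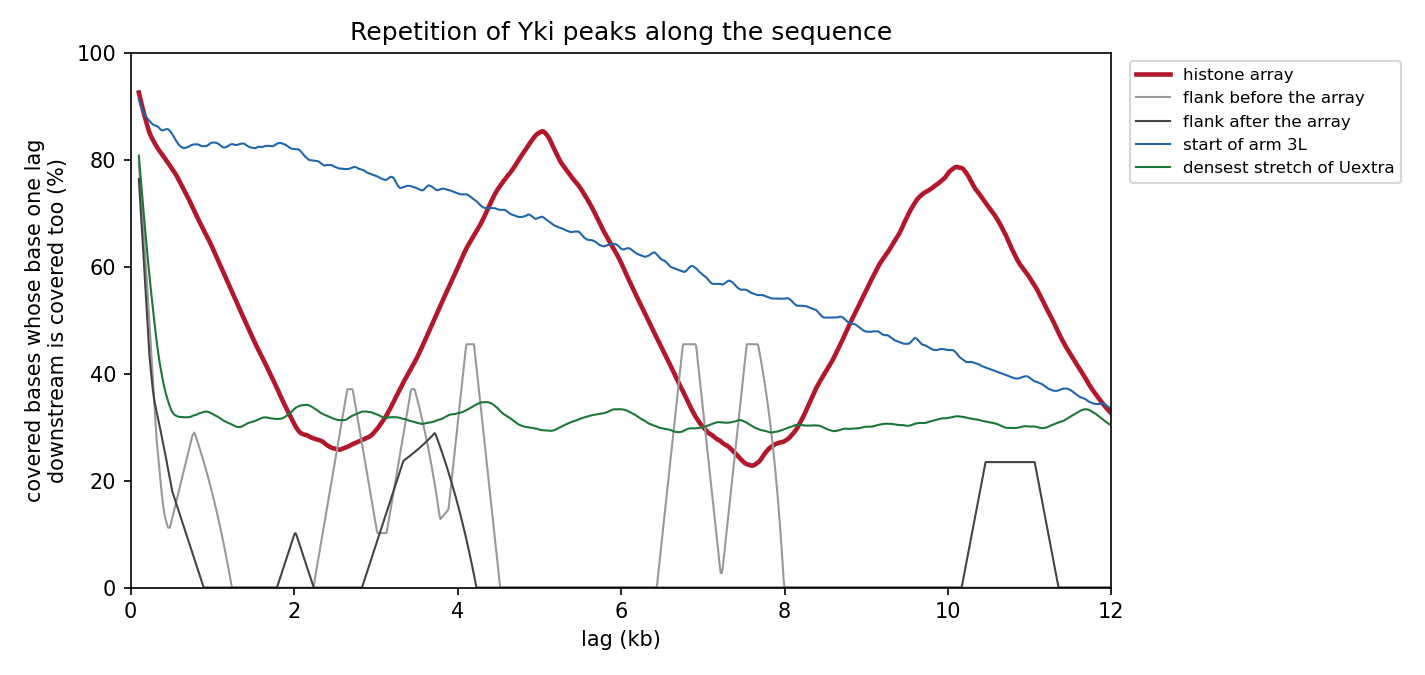
Percentage of peak-covered bases whose base one lag downstream is covered too (vertical axis) against the lag (horizontal axis, kb) for the histone array, its flanks of equal length, the start of arm 3L and the densest stretch of Uextra. The array rises to 85.4% at 5040 bp and to 78.5% at 10080 bp with lows of 25.8% at 2560 bp and 22.8% at 7600 bp before and between these rises, while the flanks, with 5 and 7 peaks, give isolated steps.

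The same step came out of the peak midpoints. Over trial periods from 3 to 8 kb, the 51 midpoints were most concentrated at a period of 5004 bp. The mean resultant length, a measure that is 1 when all points fall at the same place in the repeat and near 0 when they are spread evenly, was 0.386. It was 0.955 at 4988 bp for the midpoints of the 23 wide groups and 0.859 at 4976 bp for the 25 array peaks with scores above the median of the list. The same scan gave 0.851 at 3661 bp and 0.658 at 3760 bp for the flanks, with 5 and 7 peaks, 0.373 at 7771 bp for the 19 peaks at the start of arm 3L and 0.413 at 6423 bp for the 16 peaks of a crowded window on 3R. A scan picks the highest value over many periods, and this value is larger when points are few. The 0.386 of the 51 midpoints is close to the values of these other crowded stretches, but those rest on 19 and 16 peaks. Such values are not comparable at unequal numbers of peaks, and the 0.386 alone is not used to set the array apart. Of the 51 array peaks, 20 had another array peak within 200 bp of 1 period away, or 39.2% (exact Clopper-Pearson 95% interval 25.8 to 53.9%). On the rest of 2L, 18 of 532 peaks, or 3.38%, had a peak at that distance. The period was found on the array peaks themselves, and the array is more crowded with peaks than its flanks. The 3.38% is thus no background for an equally crowded stretch, and shares at other distances were not counted. The share over the array remains a description. The interval covers counting error over peaks alone.

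In score, the array peaks lay below the strongest sites of the list. Of the 51 peaks, 25 had a score among the highest 50% of the list, or 49.0%, where the list as a whole has 50.0% by construction. The highest array score, 70.48, lay just under the upper quartile of the list, 72.8. Each of the 23 wide groups held at least 1 of the 25 higher peaks. The median score was 24.2 over the array (95% interval of the median 16.7 to 46.0) and 30.4 over the 532 other peaks of 2L (27.7 to 33.3). These intervals treat the peaks as independent draws, which copies of 1 repeat are not, and they carry no replicate error. Among array peaks of at least 300 bp alone the median was 44.7, which lies above the 30.4 of the other peaks of 2L taken at all widths. The median of those other peaks under the same width limit was not computed. No order of array and rest of 2L is therefore drawn from these medians. The highest score was 70.48 over the array and 489.6 elsewhere on 2L. The array scores fell into a low set and a high set with few between, so the median describes neither. Only the peaks with 30.41, 24.17 and 23.42 lay between 18.45 and 42.6.

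The median width was 871 bp over the array (exact 95% interval 532 to 1875 bp), compared with 449 bp (416 to 482 bp) on the rest of 2L. These intervals too treat the peaks as independent draws. Of the 100 widest peaks of the list, 19 lay over the array, which is 37.3% of the array peaks beside 1.95% of the whole list, and all 19 were the highest-scoring peaks of their groups. On 2L, 36 peaks belonged to these 100, 19 over the array and 17 elsewhere. The 19 array peaks had scores from 43.07 to 60.97 (median 49.2), and the other 81 of the 100 had scores from 17.1 to 420.87 (median 134). Of those 81, 57 scored above all 19 array peaks and 22 below all of them. The SD of the score was 5.40 over the 19 array peaks and 114 over the other 81, which sets copies of 1 repeat beside separate sites on a score of unstated scale.

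**Figure D4:**
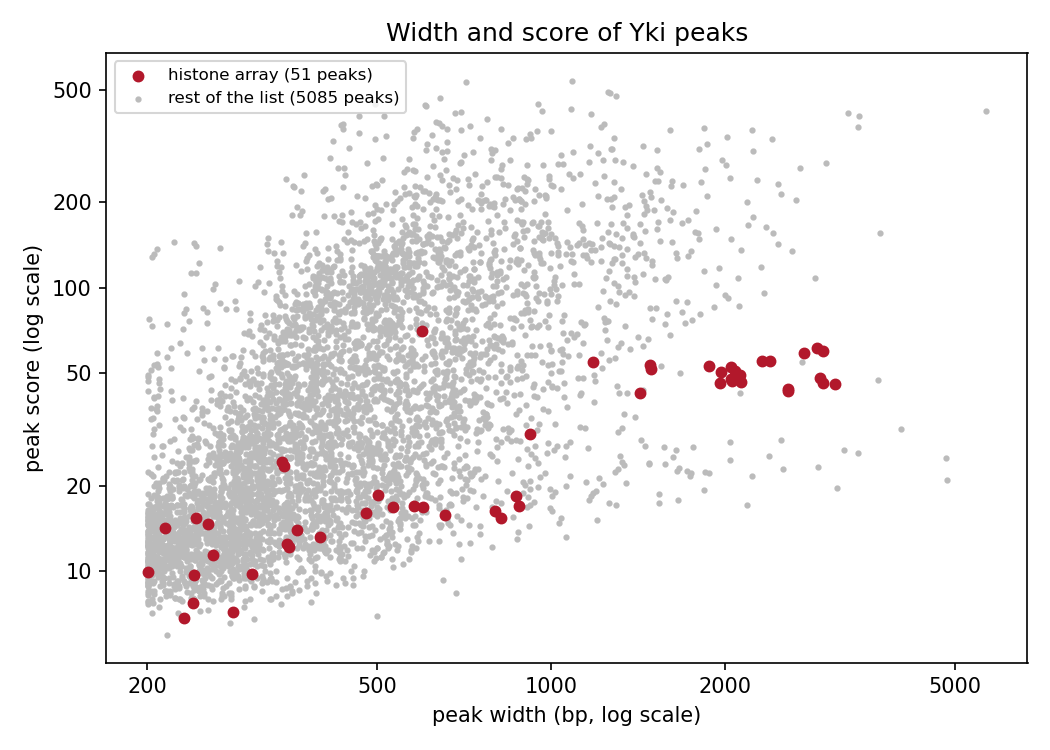
Peak score (vertical axis, log scale, the authors' unit) against peak width (horizontal axis, bp, log scale) for the 51 Yki peaks over the histone array (red) and the other 5085 peaks of the list (grey). The widest array peaks form a level band at scores of 43.07 to 60.97, between 57 higher and 22 lower ones among the 81 other peaks of such width, and the array peaks under 1 kb lie at scores of 6.83 to 30.41 apart from the peak of 598 bp at 70.48.

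Within the array, score went up with width, at a Spearman correlation over the 51 peaks of 0.82 and a Pearson correlation of 0.83. On the rest of 2L the correlations were 0.73 and 0.45 across 532 peaks. These are correlations across peaks of 1 list, which share libraries and peak calling, and the array peaks also share sequence, so no p is given.

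Groups of peaks as broad as those of the array also occurred elsewhere. With the same joining at 500 bp, 23 of 25 groups over the array and 19 of 480 groups on the rest of 2L spanned at least 2 kb. In the rest of the list there were 123 such groups among 4509. The coefficient of variation of the span was 8.51% over the array and 37.0% over the 19 other groups on 2L, which spanned 2001 to 5816 bp. The highest scores of the groups ran from 43.07 to 70.48 with a median of 50.6 over the array, and from 20.88 to 368.65 with a median of 105.6 in the 19 other groups. The first 100 kb of 3L, with 18.8% of its bases covered, had a median score of 18.4, and a crowded window of 100 kb on 3R, with 16 peaks and 8.45% covered, had a median of 34.0.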

How the data were processed

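Per the submitters' processing notes, CASAVA 1.7.0.2 and 1.7.0.3, BWA and MACS2 were used with the build BDGP5; per the file headers, peaks came from MACS on FlyBase release 5. The value used is the peak score that the authors deposited, 1 per peak for the whole series; its scale and how libraries were combined are not given in the sources used here, and depth per library is unknown. Peaks were joined at gaps of at most 500 bp, and periods of 3 to 8 kb were scanned in steps of 1 bp. The scan and the lag measure were tried on simulated arrays of unbroken single peaks at near-even steps. These had no broken groups, no long step and no control without a repeat. For the lag measure, a multiple of the period also counted as found. Intervals of medians are exact binomial ones that treat peaks as independent, which the array peaks are not. The calculations ran in Python 3.11.15 with scipy 1.17.1 on numpy 2.4.6, with tables in pandas 2.3.3 and figures in matplotlib 3.10.9.

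The members and lists were chosen with earlier results of these data known. Peaks named singly are the first and last, the 5 highest and 3 lowest in score, the 3 widest, the 3 narrowest and the nearest outside; the peaks of the first 5 groups, the single narrow peaks and the neighbours of the long stretch were added after their values were seen. Release 5 genes and promoter sequences were not used here, so the planned comparisons of promoters and motifs, and of peaks at His2Av, His3.3A, His3.3B, His4r, BigH1, cid, mxc, mute, Clamp, FLASH, Slbp, Lsm11, Lsm10, wge, abo and Trf2, were not run. The gene table is RefSeq's for release 6.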

Additional observations from a re-analysis of the deposited data

How the results depend on the processing

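The period kept within 200 bp of 5004 bp under all 6 alternatives, from 4965 bp at peak starts to 5040 bp by matched bases; the last and the 4988 bp from group midpoints were chosen after seeing the data. Keeping only the higher-scoring 50% of the list left 25 array peaks, 40.9% of the window covered and a median width of 2078 bp. Keeping the top 25% left 0 peaks and 0% covered, so it gave no width, period or neighbour share. Joining at 500 bp gave 25 groups. Widening the window by 10 kb on each side lowered the covered share to 43.2%, since the added stretches hold 1 peak. A tolerance of 400 bp raised the share with a peak 1 period away to 64.7%, and a tolerance of 100 bp lowered it to 31.4%. Among the higher-scoring 50% this share was 44%. The widened window held 52 peaks, and all 51 lay wholly inside the original one. The median score was 44.7 in peaks of at least 300 bp, well above the 24.2 reported. It lay inside the interval of that median, but that interval is wide and treats peaks as independent. No paired analysis was possible because peaks carry a single value for all libraries together, which also means that no replicate could be left out. The planned promoter and motif comparison was not run. Depth is unknown, so weaker sites in the peak-free stretches may have gone undetected.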
